A study of Mus musculus with 4 samples.

Results

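The transcripts described here are those of 10 AP-1 and immediate early transcription factors, Fos, Fosb, Fosl2, Jun, Junb, Jund, Egr1, Ier2, Atf3 and Nr4a1, in tumor-associated macrophages (TAMs). The members are a fixed list of mouse symbols matched to the Entrez identifiers of the deposited tables, 10 of the 16739 genes with a value in any library. The identifiers were 14281 for Fos, 14282 for Fosb, 14284 for Fosl2, 16476 for Jun, 16477 for Junb, 16478 for Jund, 13653 for Egr1, 15936 for Ier2, 11910 for Atf3 and 15370 for Nr4a1. All 10 had reads in all 4 libraries and all 10 passed the filter on low counts, which left 11302 genes for testing. TAMs were sorted as CD45+ CD11b+ F4/80+ cells from subcutaneous B16-F10 melanomas, a transplantable mouse melanoma line, on day 16 after injection into C57BL/6 mice aged 6 to 8 weeks. There were 2 libraries from wild type (WT) mice and 2 from mice whose genotype label is Trim24-/-, which the study made by crossing Trim24 floxed mice to LysM-Cre, a recombinase active in macrophages, neutrophils and other myeloid cells. The study's WT controls were littermates, and whether they carried the floxed allele or Cre is not given in the sources used here. No source used here says whether a library came from 1 mouse or from pooled mice, so the p-values measure only the spread between these libraries.

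The libraries held 4476122 to 5172407 expected counts, at which 3 counts correspond to 0.606 to 0.639 CPM (counts scaled to the library total). Replicates of 1 label were distinct libraries, since chi-square divided by its degrees of freedom came to 8.57 for the WT libraries and to 19.2 for the other label. Trim24, the targeted gene, measured 5.86 CPM in WT replicate 1, 2.08 in WT replicate 2, and 3.41 and 0.411 under the Trim24-/- label. The labels therefore overlapped in Trim24, and the second group is called by its label throughout, as the deficient-label libraries. In the same order Trim24 had only 28.8, 10.2, 16.1 and 2 expected counts, with a log2 fold change of -1.06 (SE 0.82, edgeR adjusted p = 0.635). Reads over the floxed part of the gene were not counted apart, so the deletion itself was not tested. Xist was at most 10.9 CPM in WT and at least 256 CPM in the other libraries, and the Y-linked Ddx3y was at least 73.7 CPM in WT and at most 0.426 CPM in the others, and although the study states that mice were matched by sex, genotype label and sex cannot be told apart in any difference below. All 8 macrophage markers were detected in every library, and their summed level was 9292 to 11130 CPM in WT and 12380 to 14080 CPM in the deficient-label libraries. The summed level of 4 monocyte markers was 507 to 628 CPM in WT and 1023 to 1635 CPM in the others, and that of 10 neutrophil markers was 185 to 223 CPM against 288 to 450 CPM. The 6 melanoma markers summed to 783 and 740 CPM in WT and to 585 and 789 CPM in the others. None was called, 5 were below 0 in log2 fold change, and 3 lay lower in both deficient-label libraries, where 23% of all genes did. T and NK cell markers summed to 75.1 and 51.0 CPM in WT and to 152 and 50.4 CPM in deficient-label replicates 1 and 2. Over all libraries, B cell markers summed to 46.2 to 55.4 CPM and dendritic cell markers to 36.4 to 78.4 CPM. Endothelial markers summed to 17.7 to 42.0 CPM with Tek at 0, and fibroblast markers to 2.82 to 5.99 CPM. None of the macrophage markers was called between the labels, all 8 were above 0 in log2 fold change, and all 4 monocyte markers were higher in both deficient-label libraries than in both WT libraries. The part of these other cells in the values below was not tested, and in bulk libraries fewer cells of a type and less RNA per cell cannot be told apart.

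AP-1 is a family of dimers built from basic leucine zipper (bZIP) proteins. Fos proteins need a Jun partner to bind DNA, whereas Jun proteins can also pair among themselves, and Atf3 can join Jun proteins or act as a repressor. Immediate early genes such as Fos, Egr1, Ier2 and Nr4a1 are switched on within minutes of a stimulus without new protein synthesis, through kinases that act on serum response factor (SRF), its ternary complex partners and CREB, and their short-lived mRNAs then decay. In macrophages these genes respond to Toll-like receptor ligands, growth factors, adhesion and handling of the cells.

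The promoters of Fos, Fosb and Nr4a1, which stood furthest apart between the labels, are shown with that of Atf3, whose labels overlapped. They serve to compare the letters of genes with lower values (Fos and Fosb) and with higher values (Nr4a1). Junb, which was higher in both deficient-label libraries in CPM, is not shown. Each line gives 300 bases of GRCm38.p6 from RefSeq, 250 before to 50 after the annotated start, 5′ to 3′ on the gene's strand. Fos is at chr12:85473640-85473939 on the plus strand, Fosb at chr7:19309996-19310295 on the minus strand, Nr4a1 at chr15:101266596-101266895 on the plus strand and Atf3 at chr1:191183284-191183583 on the minus strand. Capitals mark the core of the cAMP response element (CRE), TGACG or its complement CGTCA, and the TATA box, TATAAA.
Fos promoter: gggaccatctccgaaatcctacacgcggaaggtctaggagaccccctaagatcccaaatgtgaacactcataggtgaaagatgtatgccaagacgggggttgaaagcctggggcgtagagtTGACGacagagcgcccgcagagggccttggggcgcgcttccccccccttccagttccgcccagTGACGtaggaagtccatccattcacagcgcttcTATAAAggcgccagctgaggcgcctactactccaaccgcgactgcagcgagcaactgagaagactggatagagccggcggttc
Fosb promoter: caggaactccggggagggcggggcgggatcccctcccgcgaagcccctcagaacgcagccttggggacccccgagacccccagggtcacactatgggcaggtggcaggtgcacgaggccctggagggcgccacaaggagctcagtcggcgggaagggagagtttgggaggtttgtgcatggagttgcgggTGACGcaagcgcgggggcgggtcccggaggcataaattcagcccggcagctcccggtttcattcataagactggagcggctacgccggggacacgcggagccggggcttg
Nr4a1 promoter: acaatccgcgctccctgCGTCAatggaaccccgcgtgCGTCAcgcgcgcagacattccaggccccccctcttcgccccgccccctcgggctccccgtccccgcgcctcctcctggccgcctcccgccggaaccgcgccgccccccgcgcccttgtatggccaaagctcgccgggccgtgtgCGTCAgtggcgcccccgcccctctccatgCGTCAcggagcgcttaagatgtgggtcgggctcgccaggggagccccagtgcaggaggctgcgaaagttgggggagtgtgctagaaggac
Atf3 promoter: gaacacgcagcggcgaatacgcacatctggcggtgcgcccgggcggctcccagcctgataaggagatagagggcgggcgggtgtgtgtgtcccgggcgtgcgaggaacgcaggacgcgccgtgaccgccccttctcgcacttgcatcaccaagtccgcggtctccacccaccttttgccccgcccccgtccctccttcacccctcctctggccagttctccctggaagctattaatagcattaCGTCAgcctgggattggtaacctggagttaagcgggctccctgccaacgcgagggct

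The CRE core was present in the windows of 5 of the 8 members that have one in the RefSeq table (Fos, Fosb, Junb, Nr4a1 and Atf3), against 20.8% of all 32851 windows on either strand. Nr4a1 held 4 copies, the outermost beginning 233 bases and the innermost 40 bases before the start. Fos held 2, at 129 and 66 bases before the start, and the TATA box of Fos began 33 bases before it. Fosb, Junb and Atf3 held 1 copy each, and Fosl2, Jun and Jund none. The core was thus found in members with lower values in the deficient-label libraries (Fos, Fosb) and in members with higher values (Nr4a1, Junb). The AP-1 site, TGACTCA or TGAGTCA, was in none of the 8 windows and in 5.2% of all windows. The full CRE, TGACGTCA, was in none and in 1.79%, and the CArG box bound by SRF in none and in 1.63%. Egr1 and Ier2 had no window, and bases further than 250 before or 50 after the start were not searched. Absence from a window is therefore not absence of a site from the gene. The EGR site, GCGTGGGCG or GCGGGGGCG, was in 3 windows (Fosb, Fosl2 and Nr4a1) and in 3.47% of all. The TATA letters on the gene's strand were in 2 (Fos and Junb) and in 8.32%. In Junb they began at base 1 from the annotated start, not before it as in Fos. The NF-kB site was in 4 (Fos, Fosb, Fosl2 and Nr4a1) and in 8.46%. The CRE core overlaps the full CRE, a match is a run of letters and not a bound site, and not all windows lie at the outermost GENCODE start. The RefSeq starts used for Atf3, Nr4a1 and Fosl2 are internal to the annotated gene, those of Jund and Junb lie upstream of it, and those of Fos, Fosb and Jun are at its first bases.

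On a per-length scale (FPKM), Fos was the most abundant member in both WT libraries and was below both Junb and Atf3 in each of the others. Fos, the inducible DNA-binding partner of the Jun proteins, was at 201 and 114 FPKM in WT and at 91.5 and 74.4 FPKM in the deficient-label libraries. Junb was at 114 and 86.0 FPKM in WT and at 118 and 110 FPKM in the others. Atf3, a stress-induced bZIP factor, was at 102 and 55.2 FPKM in WT and at 110 and 75.5 FPKM in the others, and Jun was between 67.3 and 86.2 FPKM in all 4 libraries. In WT the mean levels ran from Fos (158 ± 61.6 FPKM, SD, n = 2) through Junb (100.3), Atf3 (78.6), Jun (76.8), Ier2 (45.1), Egr1 (22.2), Nr4a1 (4.76), Fosl2 (3.79) and Fosb (2.71) to Jund (1.89). Among neighbours in this order, the ranges of the 2 WT libraries overlapped for Fos and Junb, for Junb and Atf3 and for Atf3 and Jun, and did not overlap from Jun downwards. In the deficient-label libraries the mean order was Junb (114), Atf3 (92.6), Fos (82.9), Jun (72.4), Ier2 (38.7), Egr1 (14.2), Nr4a1 (6.73), Fosl2 (3.78), Jund (1.26) and Fosb (0.595). There the ranges overlapped for Atf3 and Fos and for Fos and Jun, and for no other neighbours.

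**Figure D1:**
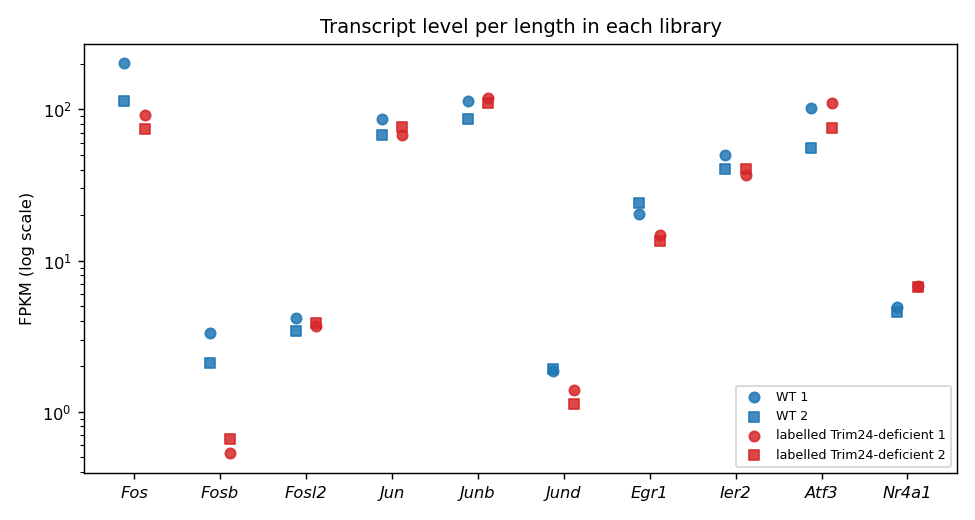
FPKM of each member on a log axis, 1 point per library, WT in blue and the deficient-label libraries in red, with circles for replicate 1 and squares for replicate 2. The Fosb points of the labels stand furthest apart (2.10 and 3.31 FPKM against 0.53 and 0.66), and those of Jun, Junb, Fosl2 and Atf3 overlap.

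The comparison of the labels asks whether these factors differ between TAMs of WT mice and TAMs labelled Trim24-deficient. None of the 10 passed a fold change above 1.5 with a false discovery rate (FDR) below 0.05 in edgeR's quasi-likelihood test, which called 0.372% of all genes tested, 33 higher (0.292%) and 9 lower (0.0796%). By limma on log2(FPKM + 1), in which the median of all genes lies at -0.13, 14 genes were higher and 9 lower. Unadjusted, 4 of the 10 had p under 0.05 in edgeR (Fosb, Fos, Egr1 and Nr4a1), against 12.2% of all genes. DESeq2 called no member and had 2 at an unadjusted p under 0.05, beside 910 of 16739 genes. By limma on log2(FPKM + 1) no member was called and 3 had an unadjusted p under 0.05, beside 1462 of 11093 genes. By CPM, the 2 libraries of 1 label lay wholly apart from the 2 of the other for 6 members, 4 lower (Fos, Fosb, Jund and Egr1) and 2 higher (Nr4a1 and Junb) in the deficient-label libraries, where 44.5% of all genes did so, 23% lower and 21.4% higher. The log2 fold changes were above 0 in 5 members and below 0 in 5, with a median of -0.01, where 49.4% of all genes tested were above 0 with a median of -0.01. With 2 libraries a label, an exact permutation test (two-sided) of a single gene cannot go below p = 0.333, and edgeR's p-values draw on a spread shared across genes.

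Among the Fos family, Fosb had the lowest values relative to WT. Fosb, on chromosome 7 from 19302696 to 19310051 on the minus strand of GRCm38, had 61 and 36 counts in WT and 10 and 13 counts in the deficient-label libraries. The exact Poisson 95% intervals of these counts, which cover counting error only, were 46.7 to 78.4 and 25.2 to 49.8 in WT and 4.8 to 18.4 and 6.92 to 22.2 in the others, so that both WT intervals lay above both of the others. In CPM, Fosb was at 12.3 and 7.5 in WT and at 2.13 and 2.67 in the others. Its log2 fold change was -2.03 (SE 0.46, edgeR adjusted p = 0.128), a level 4.09-fold lower. The largest adjusted p of Fosb among the alternatives was 0.478 (limma on all genes) and the smallest 0.00255 (edgeR with libraries of equal number as blocks). Without deficient-label replicate 2 its log2 fold change was -2.20. With the libraries of equal number taken as blocks, Fosb and Fos were called, the only members that were, where 5.61% of all genes passed, but the labels give no meaning to the numbers. The deposited tables give Fosb 1 transcript, so its shorter splice form was not counted apart.

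Fos lies on chromosome 12 from 85473890 to 85477273 on the plus strand. WT replicate 1 had 414 CPM of Fos and WT replicate 2 had 225 CPM, beside 203 and 167 CPM under the other label. Both of the latter lay below both WT libraries, but WT replicate 2 was nearer to them than to WT replicate 1. The log2 fold change of Fos was -0.79 (SE 0.28, edgeR adjusted p = 0.305, 95% interval -1.43 to -0.15). Without WT replicate 1 it was -0.27, and without deficient-label replicate 1 it was -0.93. Over the fits on all 4 libraries, the adjusted p of Fos ran from 0.0149 (edgeR with libraries of equal number as blocks) to 0.491 (limma on all genes). Fosl2, a Fos family member that lacks the strong activation domain of Fos and Fosb, lies on chromosome 5 from 32135801 to 32157842 on the plus strand and overlapped between the labels, at 24.2 and 19.0 CPM in WT and 23.2 and 24.5 CPM in the others. Its log2 fold change was 0.14, with a 95% interval of -0.40 to 0.68 in edgeR's fit, and it was -0.0039 with scaling to library totals alone.

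As a share of the summed FPKM of the Fos family, Fos made up 94.3% to 96.4% in every library. The share of Fosb was 1.58% and 1.75% in WT and 0.554% and 0.836% in the deficient-label libraries, and that of Fosl2 was 2% and 2.85% in WT and 3.88% and 4.88% in the others. The summed level of the family was 209 and 120 FPKM in WT and 95.7 and 78.9 FPKM in the others.

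The Jun family supplies the partners that Fos proteins need, and none of its 3 members differed between the labels at an unadjusted p under 0.05 in edgeR. Jun, on chromosome 4 from 95049034 to 95052222 on the minus strand, was at 270 and 202 CPM in WT and at 230 and 262 CPM in the deficient-label libraries, and the labels overlapped. Its log2 fold change was 0.06 (SE 0.21, edgeR adjusted p = 0.935), with a 95% interval of -0.42 to 0.54 that spans changes up to 1.45-fold, and with scaling to library totals alone it was -0.08. Junb, which shares the partners of Jun but activates many promoters more weakly, lies on chromosome 8 from 84974484 to 84978718 on the minus strand and was at 205 and 148 CPM in WT and at 228 and 216 CPM in the others. Both of the latter lay above both WT libraries in CPM, although not in FPKM, and the log2 fold change was 0.33 (SE 0.21, edgeR adjusted p = 0.564). Jund, usually the least inducible Jun gene, on chromosome 8 from 70698949 to 70700616 on the plus strand, had only 26 and 25 counts in WT and 20 and 17 in the others. The exact Poisson 95% intervals of these counts all overlapped, from 9.9 to 38.1, so the difference in Jund was not detectable at this depth (log2 fold change -0.43, 95% interval -1.42 to 0.56). The summed level of the family was 203 and 155 FPKM in WT and 188 and 188 FPKM in the others, with Junb at 55.4% and 56.5% of it in WT and at 58.6% and 62.9% in the others.

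The zinc finger factor Egr1 and the orphan nuclear receptor Nr4a1 lay apart between the labels in opposite directions. Egr1, on chromosome 18 from 34859823 to 34864984 on the plus strand, was at 61.2 and 69.8 CPM in WT and at 48.1 and 44.6 CPM in the deficient-label libraries. The log2 fold change was -0.50 (SE 0.19, edgeR adjusted p = 0.343, 95% interval -0.93 to -0.07), and with 1 library left out in turn it stayed between -0.57 and -0.40. Nr4a1, on chromosome 15 from 101254269 to 101274795 on the plus strand, had 61 and 52 counts in WT and 85 and 88 counts in the others. This was 12.3 and 10.8 CPM against 18.1 and 18.1 CPM, and each deficient-label library exceeded each WT library. The log2 fold change was 0.64 (SE 0.27, edgeR adjusted p = 0.39, 95% interval 0.03 to 1.26) and lay between 0.55 and 0.75 with 1 library left out. The Poisson intervals of the Nr4a1 counts, 46.7 to 78.4 and 38.8 to 68.2 in WT against 67.9 to 105 and 70.6 to 108, overlapped between the labels.

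Atf3, on chromosome 1 from 191170296 to 191218039 on the minus strand, was at 197 and 102 CPM in WT and at 228 and 159 CPM in the deficient-label libraries. The labels overlapped, since WT replicate 1 was above deficient-label replicate 2. The log2 fold change was 0.37 (SE 0.31, edgeR adjusted p = 0.656), and it was -0.03 without WT replicate 2 and 0.94 without WT replicate 1. Ier2, an immediate early nuclear protein on chromosome 8 from 84661331 to 84662852 on the minus strand, was at 74.3 and 58.1 CPM in WT and at 59.6 and 65.8 CPM in the others, so that the labels overlapped in CPM, although not in FPKM, with a log2 fold change of -0.08 and a 95% interval of -0.53 to 0.37 in edgeR's fit.

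**Figure D2:**
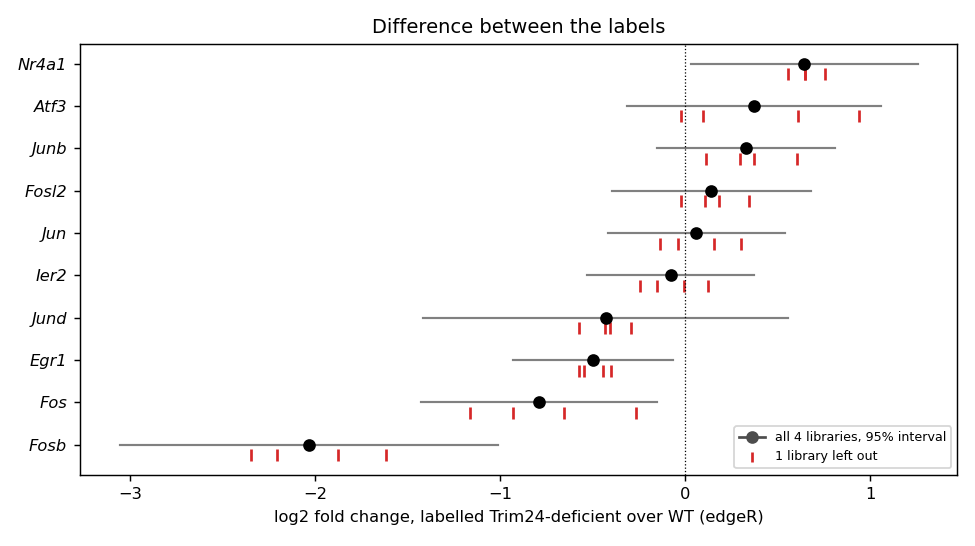
Log2 fold change of each member, deficient-label libraries over WT, from edgeR's quasi-likelihood fit (black points) with its 95% interval (grey) and the values with 1 library left out in turn (red ticks). The intervals of Fosb, Fos, Egr1 and Nr4a1 leave out 0 before adjustment, and the red ticks of Atf3 run from -0.03 to 0.94.

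The members with lower values in the deficient-label libraries were set beside those with higher values within each library, as ratios of FPKM that were chosen after the values were seen and are given with no test. Fos over Junb was 1.76 and 1.33 in WT and 0.774 and 0.676 in the deficient-label libraries. Fos over Atf3 was 1.97 and 2.07 in WT and 0.834 and 0.985 in the others. Although Fos and Atf3 each differed widely between the WT replicates, their ratio was close in both. Egr1 over Nr4a1 was 4.09 and 5.30 in WT and 2.19 and 2.03 in the others, and the summed Fos family over the summed Jun family was 1.03 and 0.771 in WT and 0.510 and 0.420 in the others. In these 4 ratios both WT libraries were above both of the others, a direction that the choice of the members largely fixes. Fos over Jun lay the same way, at 2.34 and 1.7 in WT and 1.34 and 0.971 in the others. Fos over Fosb, of which each was lower in the deficient-label libraries, lay the other way, at 60.8 and 54.4 against 173 and 113.

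**Figure D3:**
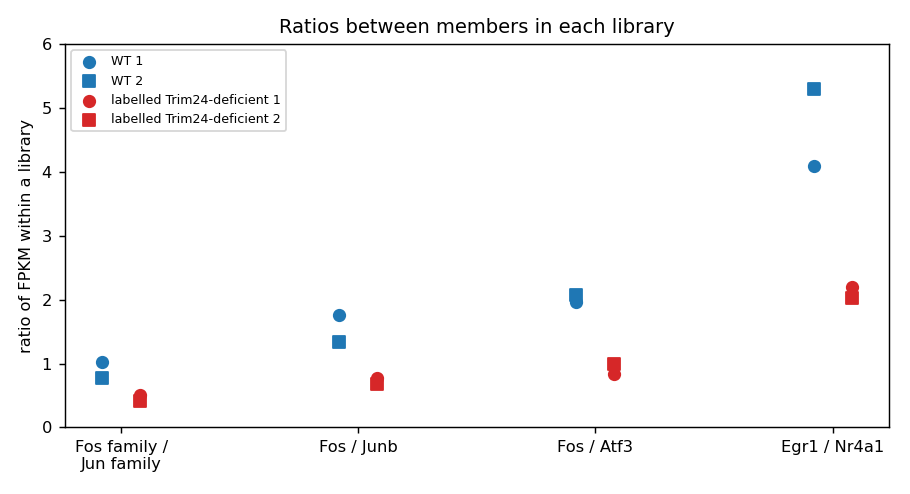
Ratios of FPKM between members in each library, on a linear axis from 0, with WT in blue and the deficient-label libraries in red. Fos over Atf3 is at 1.97 and 2.07 in WT and at 0.834 and 0.985 in the others.

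Transcript length and AU-rich letters were set beside the direction of the members as a description. Among members below 0 in log2 fold change, the deposited lengths were 2107 bases for Fos, 3783 for Fosb, 3072 for Egr1, 2894 for Jund and 1541 for Ier2. Among those above 0 they were 2534 for Nr4a1, 1840 for Junb, 1981 for Atf3, 5886 for Fosl2 and 3187 for Jun. The longest member (Fosl2) was thus above 0 and the shortest (Ier2) below 0. Over all genes tested the fold change and length had a Spearman correlation of -0.249, with genes not independent. Taking this trend out of each library left Fosb at -1.97, Fos at -0.83, Egr1 at -0.47 and Nr4a1 at 0.63 in log2 fold change. The same step moved Fosl2 from 0.14 to 0.31 and Ier2 from -0.08 to -0.15. The pentamer ATTTA, the core of AU-rich elements that mark short-lived mRNAs, occurred at 4.91 per kb of the 3′ untranslated region in Fos and at 5.52 in Nr4a1, above 93.2% and 95.2% of the 17782 genes compared (GENCODE transcripts, GRCm38), and at 4.12 in Junb, 3.24 in Jun and 2.53 in Atf3. It occurred at 1.88 per kb in Jund, 1.72 in Fosl2, 1.64 in Egr1 and 0.47 in Fosb and was absent from Ier2, against a median of 1.502 over those genes. Of the 4 members that lay lower in both deficient-label libraries, Fosb, Egr1 and Jund were thus below Nr4a1 and Junb, which lay higher in both, in this density. Fos was above Junb and below Nr4a1. Fosl2, with overlapping labels and a log2 fold change of 0.14, was below Jund in density.

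The 2 WT libraries differed in the same direction in most members, by widely varying amounts. Of the 10, 9 were higher in WT replicate 1 than in WT replicate 2, with a median difference of 0.38 in log2 CPM, whereas 48.9% of all genes were higher in WT replicate 1. The absolute difference in log2 CPM between the WT libraries was 0.945 for Atf3 and 0.878 for Fos, above 95.7% and 94.8% of all genes, and 0.68 for Fosb, above 90.1%, with 0.5 CPM added to each value. Egr1 was the exception, lower by 0.19 in WT replicate 1. Jund (0.01) and Nr4a1 (0.177) were among the 9 but differed by less than the median of 0.225 over all genes, as did Egr1. Between the deficient-label libraries, 6 of 10 were higher in replicate 1, with a median difference of 0.04. Among the 15 tested immediate early genes that are not transcription factors, 10 were higher in WT replicate 1, with a median difference of 0.26, and 11 were higher in deficient-label replicate 1, with a median difference of 0.31, so in that list the replicates of both labels differed in this way. What set the WT libraries apart was not tested.

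**Figure D4:**
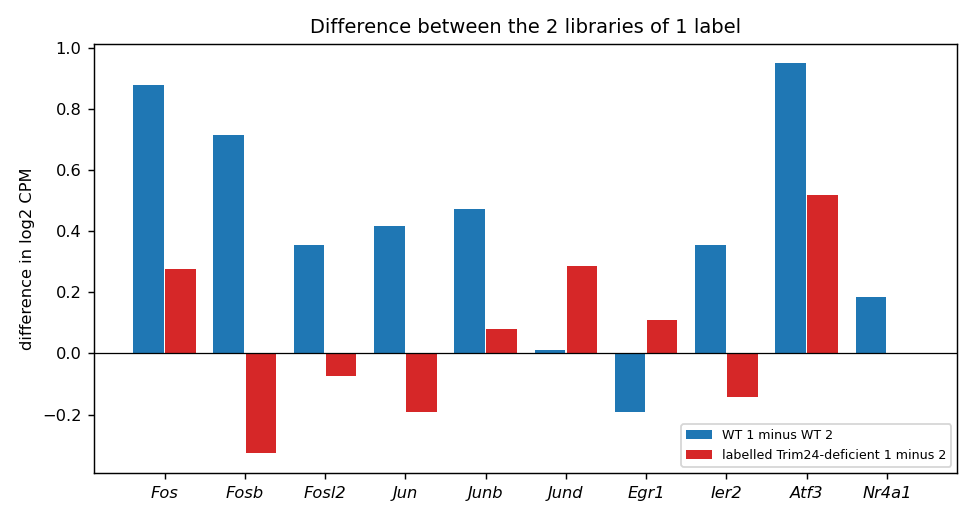
Difference in log2 CPM between the 2 libraries of 1 label for each member, replicate 1 minus replicate 2, with WT in blue and the deficient-label libraries in red. The WT bars of Fos (0.88) and Atf3 (0.95) are the tallest, and that of Egr1 lies below 0 at -0.19.

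Other genes of the same pathways were counted from fixed lists. Of 13 other AP-1 and partner bZIP factors, 12 were tested and none was called, with 8 log2 fold changes above 0, 4 below 0 and a median of 0.05. The widest were Batf2 (0.86), the interferon-induced partner of Jun proteins, Mafg (-0.56), Batf3 (0.49), needed for cross-presenting dendritic cells, and Maf (-0.48). Of 13 other immediate early transcription factors, 10 were tested and none was called, with 6 above 0, 4 below 0 and a median of 0.08. Csrnp1 was at 1.0, Klf2 at -0.64, Nfil3 at 0.61 and Egr2, the closest relative of Egr1 in macrophages, at 0.50. Among 19 immediate early genes that are not transcription factors, 15 were tested and none was called (8 above 0, 7 below 0, median 0.03), with the polo-like kinase Plk2 at 0.80, Dusp1 at -0.58, Gadd45b at 0.49 and Rhob at -0.47.

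None of the 20 kinases and SRF or CREB factors upstream of these genes was called, and all 20 were tested. Their log2 fold changes were below 0 in 15 and above 0 in 5, with a median of -0.13 beside -0.01 over all genes. The widest were Map2k6 (-0.68), the MAP kinase Mapk3 (-0.61), the SRF partner Elk4 (-0.56) and the kinase Rps6ka3 (-0.50). Of 6 Egr co-repressors and ubiquitin ligase components that act on Jun, none was called, 4 were above 0 and 2 below 0 with a median of 0.03, and the ligases Itch (0.54) and Cop1 (-0.52) lay in opposite directions.

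Of 18 genes often described as AP-1 or Egr1 targets, 16 were tested and 2 rose in the deficient-label libraries and none fell, where 0.292% of all genes tested rose and 0.0796% fell. These were Ptgs2, the inducible prostaglandin synthase, at 17.6 and 11.7 CPM in WT and 61.8 and 105 CPM in the others (log2 fold change 2.51, SE 0.31, edgeR adjusted p = 0.0112), and the cytokine Il1b (log2 fold change 2.24, edgeR adjusted p = 0.0123). The median over the 16 was 0.39, with 14 above 0 and 2 below 0, where 49.4% of all genes were above 0. Thbs1 (1.64), Vegfa (1.39), F3 (1.32) and the collagenase Mmp13 (1.03) came next and were not called. The part of monocytes and neutrophils, whose markers are given above, in these values was not tested.

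**Figure D5:**
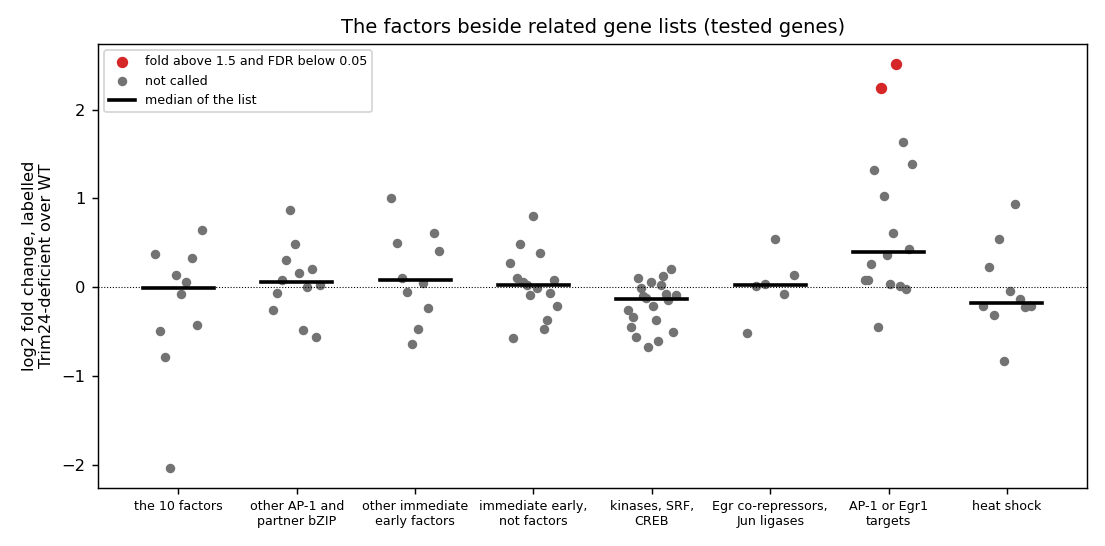
Log2 fold change of every tested gene of each list, deficient-label libraries over WT, with called genes in red, other genes in grey and the list median as a bar. Ptgs2 (2.51) and Il1b (2.24) are the only called genes, and the medians of the lists lie between -0.17 and 0.39.

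Heat shock genes, which are induced with immediate early genes when tissue is dissociated, gave 10 tested genes and none called, 3 above 0 and 7 below 0 with a median of -0.17. Hspa1a was at 0.55, Hspa1b at -0.84, Hspb1 at 0.93 and Hsp90aa1 at -0.31. Hspa1a and Hspa1b are near-identical copies, so their separate values are uncertain, and their part and that of sort handling in the Fos values was not tested.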

How the data were processed

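The deposited tables hold, for each library, RSEM expected counts, FPKM values and a transcript length per gene; genes at 0 are left out and were set to 0. Bowtie was the authors' aligner (to GRCm38/mm10) and RSEM their quantifier, per the labels and the study's methods, with versions not given in the sources used here. The deposited expected count is not normalized, and 76.6% to 77.7% of values are whole numbers. The deposited FPKM is scaled by the authors to length and library total. Of 16739 genes, 16698 matched a symbol by Entrez identifier.

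Expected counts were rounded, filtered with filterByExpr, scaled by TMM (factors 0.943 to 1.08) and tested with edgeR 4.0.16 (glmQLFit, glmQLFTest) in R 4.3.3 with Benjamini-Hochberg adjustment over all genes tested and no replicate block, with the study's thresholds on fold change (above 1.5) and FDR (below 0.05). SE is the log2 fold change divided by the square root of F. CPM uses TMM-scaled totals. DESeq2 1.42.0, limma 3.58.1 and the other settings of the closing section were alternatives. The scripts were tested on simulated data. Gene positions come from GENCODE M21 and promoter windows from RefSeq, both of GRCm38. The genes named are the 10 members, called members of each other list and up to 4 more with the widest log2 fold change among those tested, Trim24 and sex-linked genes; the ratios and the comparison of replicates were chosen after values were seen. The members and lists were chosen with earlier results of these data known. A withheld item is not reported here.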

Additional observations from a re-analysis of the deposited data

How the results depend on the processing

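No member was called under 10 of the 11 other fits on all 4 libraries. With the replicate block, 2 were called (Fos and Fosb) and 634 genes in all. The numbers pair nothing the labels name, and the correlation of same-numbered deviations from the label means was 0.165 across genes. With 1 library left out, 0 to 1 members and 25 to 652 genes were called (66 genes without WT replicate 1, 25 without WT replicate 2, 405 without deficient-label replicate 1 and 652 without deficient-label replicate 2). Other counts of called genes were 165 with DESeq2, 96 at an FDR below 0.1, 23 and 20 by limma on log2(FPKM + 1) and log2(FPKM + 0.1), and 0 by limma on all genes, where 1636 had an unadjusted p under 0.05. Of 110 member values from fits on all 4 libraries, 103 kept their direction and side of the threshold, 2 gained a call and 5 turned, and the cause was not tested. Library totals alone, which moved the median of all genes to -0.15, put Fosl2 at 0.00 (-0.0039) and Jun at -0.08 (-0.0848), and limma put Jun at -0.0749, -0.0757 and, on all genes, -0.0749. With 1 library left out, Fosl2 ran from -0.0239 to 0.35, Jun from -0.13 to 0.30, Ier2 from -0.25 to 0.13 and Atf3 from -0.0252 to 0.94, with the lone library of a label assumed to vary like the rest. Fosb, Fos, Egr1 and Jund stayed below 0 and Nr4a1 and Junb above 0 under every alternative run. Depth limits Jund and Fosb most.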
